A study of Mus musculus with 11 samples.

Results

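The subunits of the mitochondrial respiratory chain and of ATP synthase were followed at the transcript level through 6 sorted populations of mouse blood-forming and early T lineage cells. Members were chosen by gene symbol, by a rule that uses no measured value, though earlier results of these data were known. Complex I genes have names that begin with Nduf and a, b, c, s or v followed by a digit, complex II genes are Sdha to Sdhd, complex III genes begin with Uqcr, complex IV genes with Cox4 to Cox8, and ATP synthase genes with Atp5. The rule found 81 of the 19938 genes that had a probe set with a single gene symbol: 35 for complex I, 4 for complex II, 8 for complex III, 17 for complex IV and 17 for ATP synthase. Cyc1, the cytochrome c1 of complex III, has a name outside the rule and was counted with its partners further on. Cox7c and Ndufb4 had only probe sets shared by several symbols, and the subunits encoded in mitochondrial DNA had no probe set with a single symbol, so neither was analysed here.

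All cells came from C57BL/6J mice, and total RNA of sorted cells was hybridised to 11 Affymetrix arrays, each holding 1 sample. Bone marrow gave hematopoietic stem cells (HSC), which renew themselves and give rise to all blood lineages. It also gave lymphoid-primed multipotent progenitors, abbreviated LMPP, and the common lymphoid progenitors downstream of them, abbreviated CLP. Thymus gave 3 successive stages on the way to T cells, namely early thymic precursors (ETP) followed by the double negative stages 2 and 3, called DN2 and DN3. DN2 had 1 array and no replicate, and the other populations had 2 arrays each. All values are log2 intensities, whose precision is limited by so few arrays. Neither the sort gates nor the animals behind the replicates are stated in the sources used here. The p-values therefore measure the spread between these arrays, which may be technical.

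The labels were checked against markers. Slamf1, a stem cell surface receptor, averaged 7.54 in HSC and 3.99 to 5.41 elsewhere. Of the 4 measured stem cell markers it was the only 1 called lower in LMPP than in HSC, and 1 lay above 0. Their summed linear intensity was 866.5 and 719.3 in HSC and 552.6 and 875.1 in LMPP, so as a list they did not separate these 2 populations. Between CLP and HSC 3 of the 4 were called lower. The cytokine receptor Flt3 averaged 10.61 in LMPP and 10.58 in CLP, and Il7r was highest in CLP at 10.71. Il2ra, which marks the later double negative stages, averaged 11.40 in DN2 and 11.27 in DN3 and at most 7.32 in the other populations. It was already higher in ETP than in LMPP by 3.06 (limma adjusted p = 3.79e-05). Of the 4 measured ETP markers Hes1 was the only 1 called between ETP and LMPP, higher by 2.17. Of the 5 measured DN3 markers 3 were called higher in DN3 than in DN2 and 0 lower, among them Rag1 by 3.33. Markers of other lineages also differed. The erythroid gene Car1 averaged 10.90 in HSC, 6.78 in ETP and 4.91 to 5.26 elsewhere, and the B lineage factor Ebf1 averaged 9.27 in CLP and 4.33 to 5.08 elsewhere. In bulk samples such as these, fewer cells of a type and less RNA per cell cannot be told apart.

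The respiratory chain sits in the inner mitochondrial membrane. Complex I takes electrons from NADH and complex II from succinate, complex III passes them to cytochrome c, and complex IV, cytochrome c oxidase, hands them to oxygen. Complexes I, III and IV pump protons as they work, and ATP synthase lets the protons flow back and makes ATP. Most subunits are needed in nearly every cell, but several complex IV subunits come in paralogous pairs, a form used widely and a form known mainly from muscle, lung or testis. Stem cells of the blood are known for relying on glycolysis while at rest, and lymphoid progenitors for changing their metabolism as they divide and differentiate.

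Most members varied little. The range of the 6 population means had a median of 0.36 log2 units over the 81 members and 0.34 over all 19938 genes. In complex IV 3 members had a range above 1, no member of another complex did, and 64 of the 81 had a range under 0.5. The smallest range was 0.071, for Ndufb11 of complex I. Mean intensities ran from 3.67 for Cox7b2 to 12.75 for Cox6c, and intensities of different probe sets do not rank genes by abundance. The F test of limma over the 6 populations, adjusted by Benjamini-Hochberg over all genes, called 7 of the 81 members at adjusted p under 0.05, against 12.2% of all genes. These were Cox6a2, Cox6b2 and Cox7a1 of complex IV, Ndufs5 and Ndufb10 of complex I, Uqcrq of complex III and Atp5g1 of ATP synthase. Of the 8 forms grouped here as tissue-restricted (Cox4i2, Cox6a2, Cox6b2, Cox7a1, Cox7b2, Cox8b, Cox8c and Ndufa4l2, the last known as induced by low oxygen) 3 were called, and of the other 73 members 4. The count was 3 without either DN3 array and 4 without CLP replicate 1, and the 3 complex IV calls held in these fits.

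**Figure D1:**
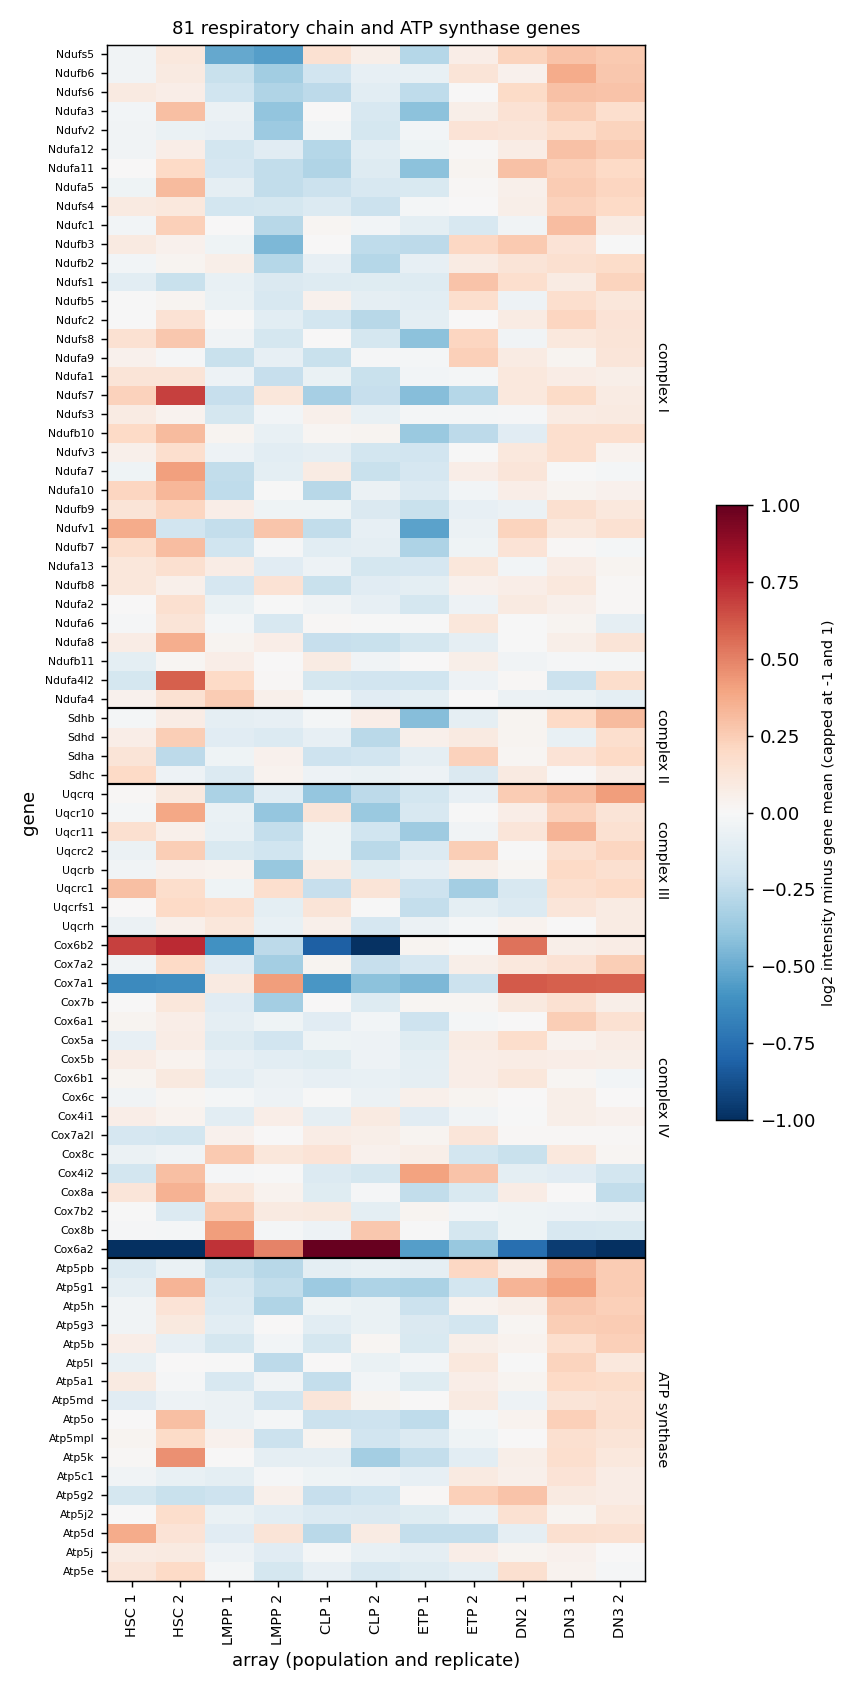
Log2 intensity of each member on each of the 11 arrays, as the difference from the mean of the gene (colour, capped at -1 and 1), with genes in rows grouped by complex and arrays in columns. Cox6a2, Cox6b2 and Cox7a1 stand out in complex IV, and the pale rows are the members with ranges under 0.5.

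Cox6a2, the form of subunit VIa known from heart and skeletal muscle, differed most. It measured 6.69 and 6.81 in HSC, 8.58 and 8.36 in LMPP, 10.63 and 10.60 in CLP, 7.30 and 7.47 in ETP, 7.10 in DN2 and 6.90 and 6.72 in DN3. Both CLP arrays lay about 2 log2 units above every other array, and the LMPP arrays lay between them and the rest. The F test gave an adjusted p of 1.47e-07.

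Cox6a2 was called higher in LMPP than in HSC by 1.72 log2 units (SE 0.13, 3.29-fold, limma adjusted p = 4.59e-05). In that comparison 3 members were called, against 2.94% of all genes. Of these 2 were higher, against 1.23% of all genes, and 1 was lower, against 1.71%. It was higher again in CLP than in LMPP by 2.15 (SE 0.13, 4.43-fold, limma adjusted p = 2.56e-05), where 2 members were called against 1.14% of all genes. Between CLP and HSC the difference was 3.87 (SE 0.13, 14.6-fold, limma adjusted p = 9.68e-08), and there 3 members were called against 6.28% of all genes, and 7 when HSC replicate 1 was left out. These comparisons share samples.

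In thymus Cox6a2 was low. ETP lay below CLP by 3.23 log2 units (SE 0.13, 9.36-fold, limma adjusted p = 8.23e-07), with 2 members called against 2.52% of all genes. ETP lay below LMPP by 1.08 (SE 0.13, limma adjusted p = 0.00135), and Cox6a2 was the only member called there, against 2.31% of all genes. DN2 and ETP differed by -0.29 and DN3 and DN2 by -0.29, neither of them called, and DN3 lay 0.06 above HSC with a 95% interval from -0.22 to 0.35. From highest to lowest the order was CLP, LMPP, ETP, DN2, DN3 and HSC, and between neighbours from ETP downwards no difference was called.

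Its widely used partner is Cox6a1, which was not called. It measured 11.52 and 11.61 in CLP, against 11.66 and 11.71 in HSC, and its F test gave an adjusted p of 0.452. The difference between CLP and HSC was -0.12 with a 95% interval from -0.37 to 0.14.

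Some genes of another cell type moved with Cox6a2 and others did not. Of 11 genes known from plasmacytoid dendritic cells, a list added after the Cox6a2 values were seen, 5 were called higher in CLP than in HSC and 0 lower. Of all genes 6.28% were called in that comparison, counting both directions. Siglech, a surface lectin of those cells, measured 7.75 and 8.36 in CLP and 5.41 to 5.85 on the other 9 arrays. Irf8, a factor of dendritic and B cell development, averaged 8.53 in CLP and 5.85 to 6.97 elsewhere. These were the only members of the list called between CLP and LMPP. Ccr9, a chemokine receptor that T lineage cells also use, was instead higher in DN3 than in HSC by 2.36 (limma adjusted p = 2.8e-05) and higher in DN3 than in DN2 by 2.75, and Spib was higher in DN3 than in HSC by 0.86 (limma adjusted p = 0.016), where Cox6a2 was low. The summed linear intensity of the 11 genes was 2414.8 and 2954.5 in CLP, 1952.7 and 2072.7 in LMPP and 1239.4 to 1709.1 on the other arrays. Members of the B lineage list also rose in CLP, with 2 of its 4 measured genes called higher than in HSC. The part of such cells in the Cox6a2 result was not tested. Among 16 striated muscle genes, likewise added later, 1 (Tnni2) was called higher in CLP than in HSC and 0 lower, and Myod1 and Myog, the regulators of muscle fate, did not pass the F test. Itgad, whose annotated end overlaps that of Cox6a2 by 70 bases on chromosome 7, stayed between 5.25 and 5.76 on all arrays (F test adjusted p = 0.892).

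Cox6b2, the form of subunit VIb known from testis, ran the other way. It measured 9.86 and 9.93 in HSC, 8.58 and 8.92 in LMPP, 8.37 and 8.19 in CLP, 9.20 and 9.18 in ETP, 9.72 in DN2 and 9.23 and 9.25 in DN3. The marrow progenitors were lowest, and neither LMPP nor CLP arrays overlapped with those of any other population. LMPP lay below HSC by 1.15 log2 units (SE 0.13, limma adjusted p = 0.00104) and CLP below HSC by 1.62 (SE 0.13, 3.07-fold, limma adjusted p = 3.41e-05). ETP lay above CLP by 0.91 (SE 0.13, limma adjusted p = 0.00413). The DN3 arrays were 0.65 below those of HSC (SE 0.13, limma adjusted p = 0.00986), where 2 members were called against 9.6% of all genes. That last call was lost when HSC replicate 2, DN3 replicate 1 or DN3 replicate 2 was left out, with the difference still -0.62 to -0.68 without any 1 array.

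Cox6b1, the widely used partner of Cox6b2, stayed between 12.27 and 12.49 on all 11 arrays and was not called (F test adjusted p = 0.838). Of 12 male germ cell genes, a list added after the Cox6b2 values were seen, limma's F test called 0, against 12.2% of all genes. Of the 12 genes 2 had an unadjusted p under 0.05. The protamine Prm2, for example, stayed between 6.34 and 6.90.

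Cox7a1, the form of subunit VIIa known from heart and skeletal muscle, had a pattern of its own. It measured 6.37 and 6.38 in HSC, 7.09 and 7.42 in LMPP, 6.42 and 6.59 in CLP, 6.55 and 6.79 in ETP, 7.61 in DN2 and 7.60 and 7.59 in DN3. It was high in LMPP and again in the later double negative cells, and low in HSC, CLP and ETP. LMPP lay above HSC by 0.89 log2 units (SE 0.14, limma adjusted p = 0.00669), a call lost without LMPP replicate 2, where the difference was 0.72 (adjusted p = 0.0593). CLP lay below LMPP by 0.75 (SE 0.14, limma adjusted p = 0.0327), a call that did not hold after each array was centred on its median (adjusted p = 0.0659) or without LMPP replicate 2, either CLP array or either DN3 array (differences of -0.84 to -0.59).

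Cox7a1 rose between the thymic stages. DN2 lay above ETP by 0.94 (SE 0.17, limma adjusted p = 0.0308), the only member called in that comparison, against 0.998% of all genes, and a fit that assumes the single DN2 array varies like the others. DN3 lay above ETP by 0.92 (SE 0.14, limma adjusted p = 0.00211) and above HSC by 1.22 (SE 0.14, 2.33-fold, limma adjusted p = 2.05e-04). Without either ETP array or either DN3 array the DN2 call was lost, at differences of 0.82 to 1.06, while both DN3 calls held without any 1 array. Its partner Cox7a2 measured 11.36 and 11.46 in DN3, against 11.05 and 11.27 in ETP, a difference of 0.25 in the same direction with a 95% interval from -0.07 to 0.57. Cox7a2 was not called (F test adjusted p = 0.405).

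**Figure D2:**
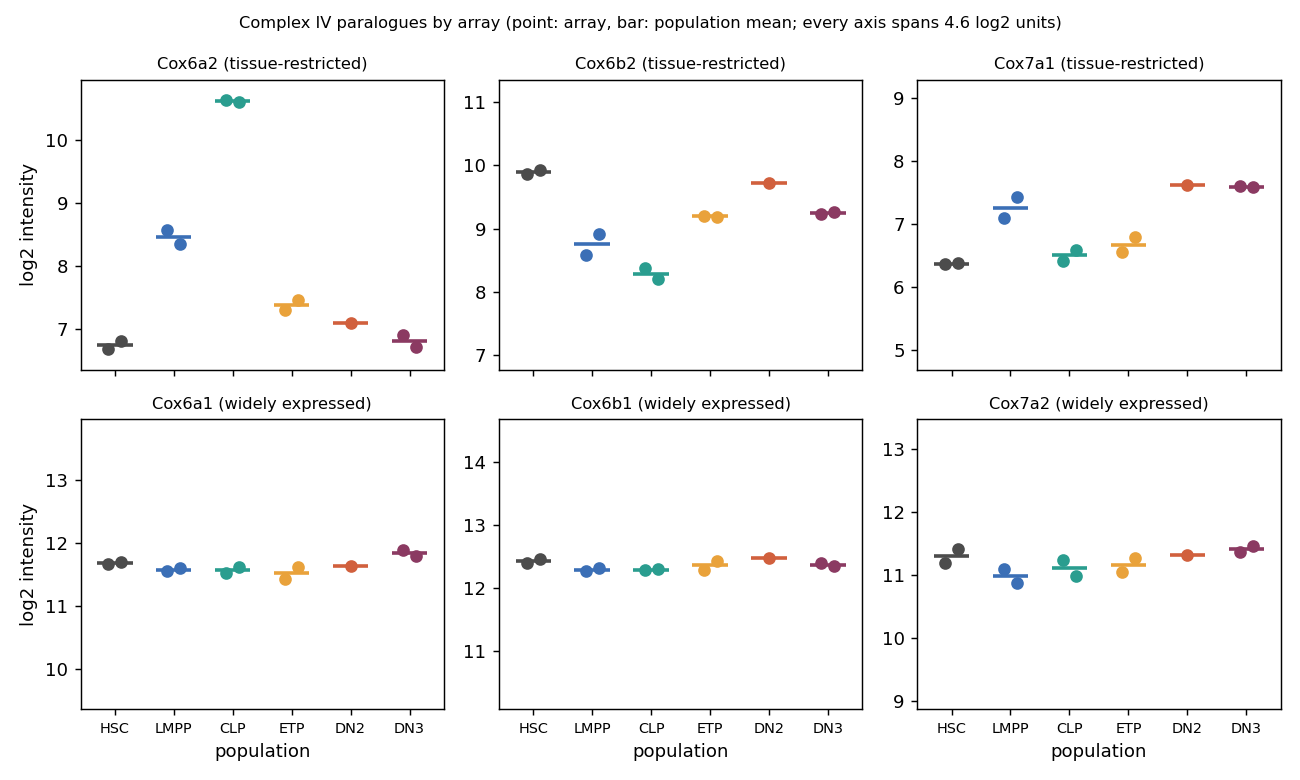
Log2 intensity of 3 tissue-restricted complex IV subunits (top row) and their widely expressed partners (bottom row) in the 6 populations; points are arrays, bars are population means, and every vertical axis spans the same number of log2 units. Cox6a2 peaks at 10.63 and 10.60 in CLP, Cox6b2 is lowest there, Cox7a1 is highest in LMPP, DN2 and DN3, and of the partners Cox7a2 varies most, by 0.42 between population means.

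The promoters of these pairs are shown because 3 tissue-restricted forms were called in the F test and their partners were not, although no paralogue was tested against its partner. Each is the 250 bases before the annotated start of the gene in RefSeq (GRCm38.p6), written 5′ to 3′ on the strand of the gene, and capitals mark matches to the motifs named after them. The table used held a promoter for 66 of the 81 members, 71 windows in all, and for Cox6a2 and 14 others it held none. The 5 promoters and the motifs were picked after the values were seen, and other spellings of these motifs were looked at and are not given.
Cox6a1, GRCm38.p6 chr5:115348959-115349208, minus strand: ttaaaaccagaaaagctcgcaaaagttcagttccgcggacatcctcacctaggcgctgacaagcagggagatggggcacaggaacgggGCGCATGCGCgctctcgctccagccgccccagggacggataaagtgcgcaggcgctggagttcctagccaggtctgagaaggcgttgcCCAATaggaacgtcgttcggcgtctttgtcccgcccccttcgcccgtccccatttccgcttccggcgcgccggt
Cox6b2, GRCm38.p6 chr7:4753095-4753344, minus strand: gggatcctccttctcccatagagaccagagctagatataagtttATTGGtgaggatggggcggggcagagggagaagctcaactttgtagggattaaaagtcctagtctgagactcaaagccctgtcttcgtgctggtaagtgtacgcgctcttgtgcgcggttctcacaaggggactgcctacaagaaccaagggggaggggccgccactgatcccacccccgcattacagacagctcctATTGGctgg
Cox6b1, GRCm38.p6 chr7:30626115-30626364, minus strand: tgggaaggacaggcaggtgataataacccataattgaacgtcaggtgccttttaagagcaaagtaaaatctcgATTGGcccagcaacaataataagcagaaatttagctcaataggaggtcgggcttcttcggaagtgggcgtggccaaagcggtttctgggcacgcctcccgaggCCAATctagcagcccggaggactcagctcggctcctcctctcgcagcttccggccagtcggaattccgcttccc
Cox7a1, GRCm38.p6 chr7:30183921-30184170, plus strand: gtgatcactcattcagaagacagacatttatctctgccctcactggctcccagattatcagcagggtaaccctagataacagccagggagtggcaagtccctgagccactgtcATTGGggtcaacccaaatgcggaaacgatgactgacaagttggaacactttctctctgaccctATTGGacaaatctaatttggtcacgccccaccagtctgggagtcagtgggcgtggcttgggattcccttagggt
Cox7a2, GRCm38.p6 chr9:79759854-79760103, minus strand: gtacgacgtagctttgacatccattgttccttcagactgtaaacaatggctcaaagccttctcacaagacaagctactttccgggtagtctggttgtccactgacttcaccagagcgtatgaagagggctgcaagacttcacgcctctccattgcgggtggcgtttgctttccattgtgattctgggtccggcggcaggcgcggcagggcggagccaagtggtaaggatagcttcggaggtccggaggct

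The pairs differed in CG dinucleotides. The 250 bases before the start held 8 CG pairs in Cox6b2 and 14 in Cox6b1, and 4 in Cox7a1 and 14 in Cox7a2. Cox6a1 had 26. The median was 14 over the members' windows, 10 over windows of protein-coding genes and 6 over all windows. No motif searched contains another. Searched on both strands of windows from 250 bases before to 50 after the start, the letters GCGCATGCG, the core of a motif bound by the respiratory factor NRF-1, stood in 11.3% of the members' windows and 1.75% of all windows (2.35% of those of protein-coding genes). The 8 members with them were Atp5g2, Atp5k, Atp5l, Cox6a1, Ndufa8, Ndufa11, Uqcr11 and Uqcrc1. AAGATGGCG, a form of the YY1 motif, stood in 9.86% of the members' windows, 1.4% of all windows and 1.83% of coding windows, among them those of Ndufs7 and Ndufs6. For CCGGAAGT, an ETS family motif, the shares were 7.04%, 3.89% and 5.15%, and for CCAAT, the box bound by NF-Y, 42.3%, 37.4% and 38.2%. TATAAA stood in 12.7% of the members' windows and 13.6% of all windows, and the E-box CACGTG in 9.86% and 7.15%. Of the printed promoters, that of Cox6a1 held the NRF-1 letters, and those of Cox6a1, Cox6b2, Cox6b1 and Cox7a1 held CCAAT or its reverse complement ATTGG. None of these matches shows binding in these cells.

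The remaining paralogous forms were not called in the F test or in any of the 9 comparisons. Cox4i2, a form of subunit IV known from lung, averaged 6.46 in ETP and 5.95 to 6.17 elsewhere, and its difference of -0.49 between DN3 and ETP had a limma adjusted p of 0.0951. Cox7b2 and Cox8c, known from testis, and Cox8b, known from muscle, varied by 0.25 to 0.41 between population means. Ndufa4l2, known as induced by low oxygen, measured 5.36 and 6.13 in HSC, an uneven pair that spanned most of its range over all arrays. Ndufa4, first counted with complex I and now known as a complex IV subunit, stayed between 11.95 and 12.32. Cox7a2l, known for joining complexes III and IV, measured 11.23 and 11.21 in HSC and 11.40 to 11.52 on the other arrays, and was not called (F test adjusted p = 0.578).

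In complex I, Ndufs5, an accessory subunit, measured 8.78 and 8.73 in LMPP and averaged 9.18 to 9.56 in the other populations. Its LMPP arrays were the lowest and did not overlap with those of any other population (F test adjusted p = 0.0186, a call lost without either LMPP array or either DN3 array). The separate comparisons came close to the threshold without passing it, at -0.57 between LMPP and HSC (limma adjusted p = 0.0529) and 0.64 between CLP and LMPP (limma adjusted p = 0.0559).

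Ndufb10, an accessory subunit of the membrane arm, was lowest in ETP. It measured 10.75 on both DN3 arrays, against 10.21 and 10.33 in ETP, and the difference of 0.48 (SE 0.11) was called (limma adjusted p = 0.025; F test adjusted p = 0.046). The F test call was lost with the replicate number as a block and without any 1 array other than that of DN2, and the DN3 call without any 1 ETP or DN3 array (differences of 0.43 to 0.54). HSC had its highest values, 10.78 and 10.90. Ndufs7, a core subunit that carries the last iron-sulphur cluster of the electron path, measured 7.98 and 8.08 in CLP, against 8.54 and 8.99 in HSC. CLP lay below HSC by 0.74 (SE 0.17, limma adjusted p = 0.0248), while the F test gave an adjusted p of 0.0515. Without HSC replicate 2, the higher array, the difference was -0.51 and was not called, and the call was also lost without CLP replicate 1 or 2.

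Complex II takes part in both the citric acid cycle and the chain. Its iron-sulphur subunit Sdhb measured 10.31 and 10.43 in DN3, against 9.69 and 10.03 in ETP, and the difference of 0.51 (SE 0.13) was called (limma adjusted p = 0.044). Without ETP replicate 1, the lower array, it was 0.35 and not called, and the call was also lost without any 1 LMPP, CLP or DN3 array. Sdha, the flavoprotein, and the membrane anchors Sdhc and Sdhd were not called in the F test or in any of the 9 comparisons.

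In complex III, Uqcrq, a small accessory subunit, measured 10.29 and 10.40 in DN3, against 9.79 and 9.90 in ETP (F test adjusted p = 0.0182). The difference of 0.50 (SE 0.12) was called (limma adjusted p = 0.0339), a call lost without any 1 ETP or DN3 array (0.44 to 0.55). The F test call was lost without CLP replicate 1 or either DN3 array. Its CLP arrays, at 9.60 and 9.72, were among the lowest, and DN2, at 10.24, lay near DN3. Uqcrh varied least in this complex, by 0.10 between population means. Cyc1, the partner outside the naming rule, had the same direction, with a difference of 0.49 between DN3 and ETP (limma adjusted p = 0.0184).

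ATP synthase has 3 genes, Atp5g1, Atp5g2 and Atp5g3, for the same mature subunit c of its rotating ring, and they did not run in parallel. Atp5g1 measured 9.29 and 9.14 in DN3, against 8.57 and 8.71 in ETP, a called difference of 0.58 (SE 0.15, limma adjusted p = 0.0421; F test adjusted p = 0.034). Atp5g3 measured 11.75 and 11.76 in DN3, against 11.35 and 11.32 in ETP, a difference of 0.42 (SE 0.11, limma adjusted p = 0.0478). Atp5g2 measured 11.13 and 11.11 in DN3, against 11.05 and 11.28 in ETP, and its difference of -0.05 was not called, with a 95% interval from -0.33 to 0.24. The difference between these genes was not itself tested. The DN3 call of Atp5g1 was lost with quantiles normalized again (adjusted p = 0.146), the mean of probe sets (0.0502), an intensity trend (0.0521) and the replicate number as a block (0.0529), and that of Atp5g3 with quantiles normalized again (0.0787) and the block (0.0642). Both were lost without any 1 of the LMPP, CLP, ETP or DN3 arrays. The F test call of Atp5g1 was also lost with quantiles normalized again and without any 1 of those 8 arrays. The catalytic and stalk subunits were not called.

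Between DN3 and ETP 7 members were called, against 6.57% of all genes. Of these 6 were higher, against 2.68% of all genes, and 1 was lower, against 3.89%. Besides Cox7a1, Atp5g1, Sdhb, Uqcrq, Ndufb10 and Atp5g3, which rose, Cox6a2 fell by 0.58 (SE 0.13, limma adjusted p = 0.0221), a call lost with quantiles normalized again (adjusted p = 0.0551) and without any 1 ETP or DN3 array. The count dropped to 1 without ETP replicate 1 or either DN3 array and to 2 without ETP replicate 2, and it was 4 without any 1 of the LMPP or CLP arrays. Of the 7 calls, that of Cox7a1 held in each of these fits.

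**Figure D3:**
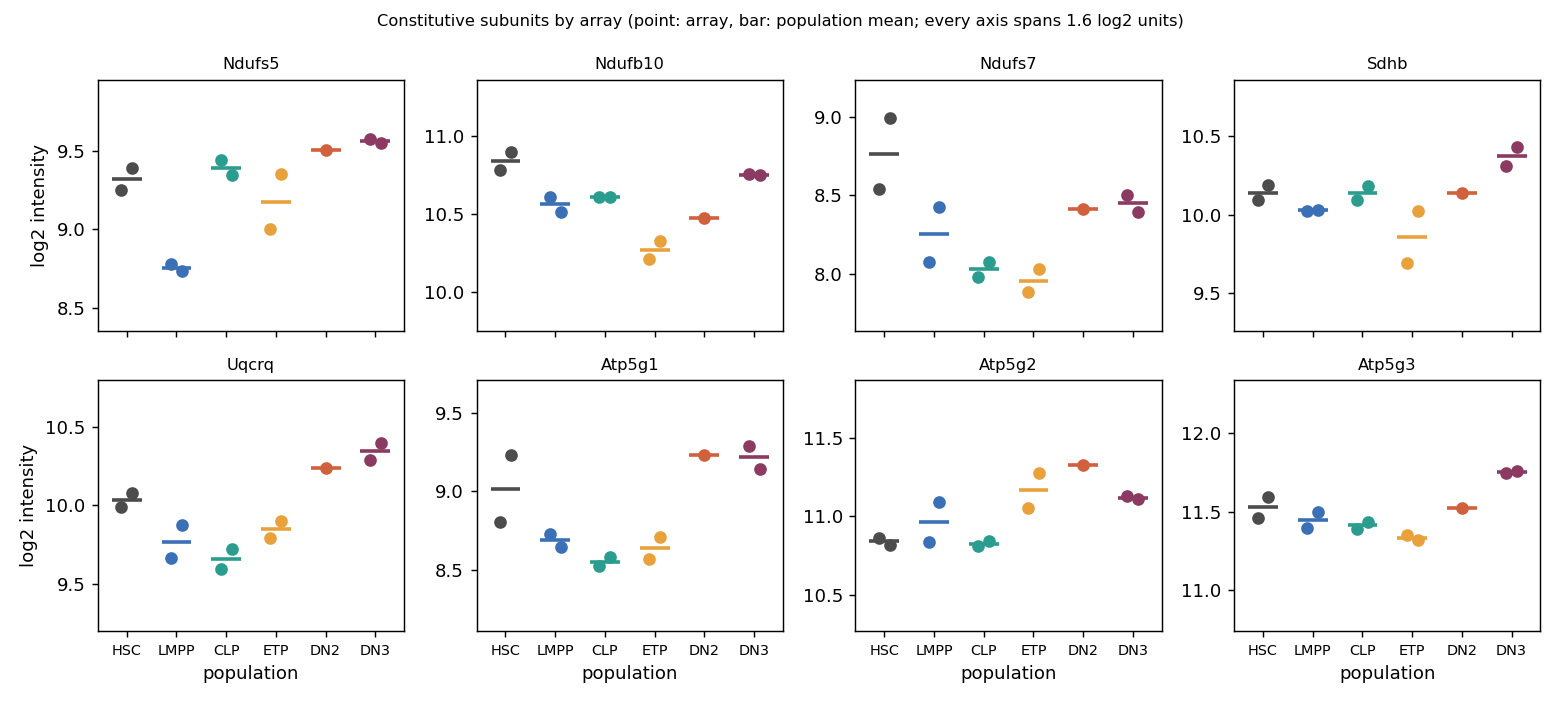
Log2 intensity of 8 widely expressed subunits in the 6 populations; points are arrays, bars are population means, and every vertical axis spans the same number of log2 units. Ndufs5 dips in LMPP, Ndufb10 and Sdhb are lowest in ETP, and Uqcrq, Atp5g1 and Atp5g3 are higher in DN3 than in ETP, which Atp5g2 is not.

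Many small differences pointed the same way. Between LMPP and HSC 12 of the 81 members lay above 0 and 69 below, and the median difference was -0.163, against 0.034 over all genes, of which 57.4% lay above 0. Among genes with a mean intensity of at least 10, where 51 of the members lie, 39.2% lay above 0. Both LMPP arrays were below both HSC arrays for 51 members, against 17.0% of all genes, and above them for 5, against 21.3%. In complex I 3 of 35 members lay above 0, in complex III 1 of 8 and in ATP synthase 1 of 17. CLP against HSC, which shares the HSC arrays, had 13 members above 0 and a median of -0.17. There 53.9% of all genes lay above 0, and 46.4% of those with a mean of at least 10. The single differences were small, and of the 73 members without the tissue-restricted forms limma called 0 between LMPP and HSC, and 13 had an unadjusted p under 0.05, against 13.6% of all genes.

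In thymus the direction turned. Between DN3 and ETP 69 members lay above 0 and 12 below, with a median of 0.145, against -0.0029 over all genes, of which 49.1% lay above 0. Genes with a mean intensity of at least 10 moved the same way as a whole, with 62% above 0 and a median of 0.0626. Both DN3 arrays were above both ETP arrays for 51 members, against 23.6% of all genes, and below them for 5, against 24.3%. All 8 complex III members and 16 of 17 ATP synthase members lay above 0, and 31 of 35 in complex I. Between DN2 and ETP 64 members lay above 0, with a median of 0.12, against 49.4% of all genes and 59.9% of those with a mean of at least 10. That median was 0.0476 without ETP replicate 1, with 53 members above 0, and 0.1712 without replicate 2, with 70 above 0. DN3 and DN2 differed by a median of 0.054, with 0 members called by limma against 1.8% of all genes and 1 member at an unadjusted p under 0.05, against 8.17% of all genes.

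The ETP arrays stood apart from each other, and this touches each comparison that holds them. The mean of the 73 members without the tissue-restricted forms, each centred on its gene, was -0.15 on ETP replicate 1 and 0.014 on replicate 2. Without ETP replicate 1 the median difference between DN3 and ETP was 0.095, with 59 members above 0, and without replicate 2 it was 0.26, with 72 above 0. Between ETP and LMPP the median was 0.051 with both arrays, 0.12 without replicate 1 and -0.0275 without replicate 2. Between ETP and CLP it was 0.045, 0.13 and -0.0355 in the same order, so these 2 comparisons have no settled direction. With both arrays 56.8% of members lay above 0 between ETP and LMPP and 66.7% between ETP and CLP. For genes with a mean intensity of at least 10 the shares were 72.9% and 69.6%, with medians of 0.0994 and 0.0696. The HSC pair differed less, at 0.036 and 0.12, and the median between LMPP and HSC was -0.20 without HSC replicate 1 and -0.12 without replicate 2.

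**Figure D4:**
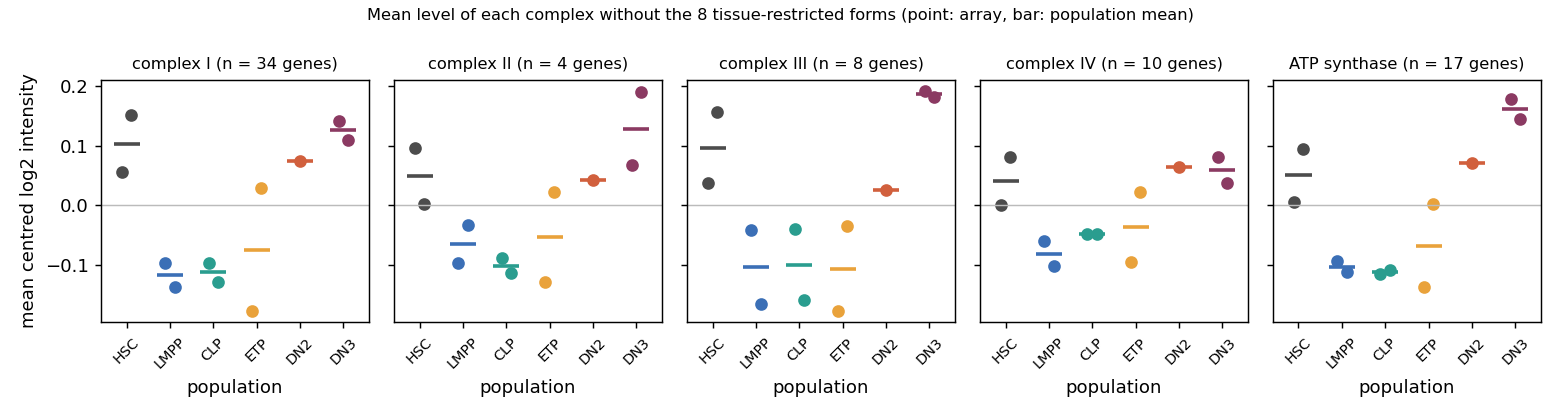
Mean over the genes of each complex, without the 8 tissue-restricted forms, of the log2 intensity centred on each gene; points are arrays and bars are population means. LMPP and CLP lie below 0 in every complex and DN3 above 0, and the ETP arrays lie far apart.

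By complex, the population means of this centred level had a range of 0.24 log2 units in complex I, 0.23 in complex II, 0.29 in complex III and 0.27 in ATP synthase. The pooled SD between arrays of a population was 0.074, 0.071, 0.080 and 0.054 in the same order. Complex IV had a range of 0.11 over its 17 members and 0.15 over the 10 without the tissue-restricted forms. Over all 17 its mean was 0.055 in CLP, the highest population, and -0.041 in HSC. Without those forms the means were -0.048 in CLP and 0.041 in HSC, so the restricted forms turned this order. Over single genes DN3 was the highest population for 34 members and HSC for 24, while LMPP was the lowest for 30, CLP for 25 and ETP for 17. Over all genes DN3 was highest for 17.4% and HSC for 16.3%. DN3 against HSC gave 49 members above 0 (60.5%) and a median of 0.046, which turned to -0.057 when quantiles were normalized once more. Of all genes 50.5% lay above 0 there, with a median of 0.0021. Of genes with a mean intensity of at least 10, 68.0% did, with a median of 0.098, higher than that of the members.

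**Figure D5:**
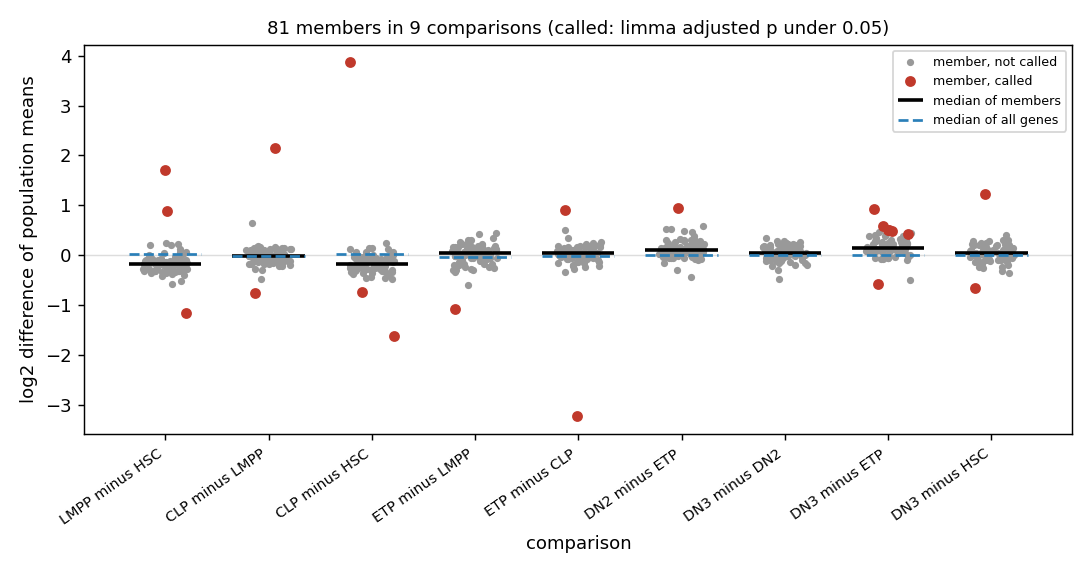
Log2 difference of population means for each of the 81 members in 9 comparisons; red points are called by limma at adjusted p under 0.05, black bars are medians of the members and dashed bars medians of all genes. Medians of members lie at -0.163 between LMPP and HSC and at 0.145 between DN3 and ETP, and the outlying points are Cox6a2, Cox6b2 and Cox7a1.

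Genes of the mitochondrial ribosome and of chain assembly had the same directions. Of 77 mitochondrial ribosome genes 8 lay above 0 between LMPP and HSC, with a median of -0.22. There 57.4% of all genes lay above 0, and 39.2% of those with a mean intensity of at least 10. The 2 called, Mrps25 and Mrpl52, were both lower, against 1.71% of all genes called lower. Between DN3 and ETP 72 lay above 0, with a median of 0.22. There 49.1% of all genes lay above 0, and 62% of those with a mean of at least 10. In that comparison 7 were called higher and 0 lower, against 2.68% and 3.89% of all genes. Mrpl58, a peptide release factor of that ribosome, was higher by 1.00 (SE 0.12, limma adjusted p = 3.75e-04). Of 43 assembly factors 7 lay above 0 between LMPP and HSC. Only Taco1, which is needed for translation of a complex IV core subunit, was called there. It was lower by 0.85 (SE 0.13, limma adjusted p = 0.005), against 1.71% of all genes called lower. Between DN3 and ETP 2 assembly factors were called, Lyrm7 of complex III and Ecsit of complex I. Both were higher, against 2.68% of all genes called higher. Of 10 genes for cytochrome c, the ATP synthase inhibitor and carriers, 3 lay above 0 between LMPP and HSC and 6 between DN3 and ETP (median 0.028). These lists are described, with no test of their own.

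Glycolysis and the citric acid cycle had the same signs as the chain by their medians. Of 20 glycolytic genes 7 lay above 0 between LMPP and HSC (median -0.133) and 14 between DN3 and ETP (0.134). In the citric acid cycle list 4 of 20 lay above 0 between LMPP and HSC (median -0.0778) and 12 between DN3 and ETP (0.102). That list also holds pyruvate dehydrogenase, its kinases and pyruvate carboxylase. The kinase Pdk3 was its only gene called between LMPP and HSC, at -1.22 (limma adjusted p = 0.00774). Of all genes 1.71% were called lower there. Of the glycolytic genes 3 were called lower in LMPP than in HSC, against 1.71% of all genes. Among them was Ldha, the muscle form of lactate dehydrogenase, at -0.73. In DN3 against ETP 5 were called higher, against 2.68% of all genes. There the lactate carrier Slc16a1 led at 1.55 (SE 0.19, limma adjusted p = 5.33e-04), followed by Ldhb at 1.35. Of the citric acid cycle genes, Mdh2, which makes oxaloacetate, was called higher in DN3 than in ETP at 0.57. Of 16 regulators of mitochondrial biogenesis, among them Nrf1, Tfam and Myc, 0 were called by limma between LMPP and HSC or between DN3 and ETP. In each comparison 3 had an unadjusted p under 0.05, against 13.6% and 15.9% of all genes. Of these regulators 8 lay above 0 between LMPP and HSC and 7 between DN3 and ETP (median -0.0099). Lin28b was the only regulator called between DN3 and HSC, lower by 0.47, against 9.6% of all genes called there. Of 70 genes matched by cytosolic ribosome names, a pattern that also takes in ribosomal protein kinases, 43 lay above 0 between LMPP and HSC and 18 between DN3 and ETP.

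Other measures moved beside these shifts. Of 19 cell division genes 18 lay above 0 between LMPP and HSC, so division genes and chain members had opposite signs there. In that comparison 3 of the division genes (Kif23, Cenpf and Nusap1) were called higher, against 1.23% of all genes. Between DN3 and ETP 18 of the 19 lay above 0, the same sign as the chain. Ccna2 was called higher there, against 2.68% of all genes. The summed linear intensity of 4 neutrophil genes was 371.6 and 356.4 in DN3, against 2365.9 and 2473.3 in ETP. For LMPP it was 1590.0 and 1765.1, against 3931.1 and 3379.0 in HSC. That of the 2 measured of 5 erythroid genes was 110.2 and 76.6 in LMPP, against 2369.0 and 1700.8 in HSC. The part of such cells, and of division, in the shifts of the chain genes was not tested.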

How the data were processed

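The authors' deposited values are log2 intensities made by RMA, per the submitters' processing notes, which corrects background, normalizes quantiles and summarises probe sets; neither its version nor the chip definition is stated there. Of 35556 probe sets 21789 had 1 gene symbol in the platform annotation, 1621 had several and 12146 none. The probe set of highest mean over 11 arrays was used per gene, which gave 19938 genes and no filter on dim ones. Of the members 16 had several probe sets, whose differences disagreed by up to 0.51 log2 units (Uqcr11). All 81 symbols are current in RefSeq (GRCm38.p6), which also gave promoters and neighbours. Array medians lay between 6.01 and 6.12.

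Groups followed the sample titles; the ETP, DN2 and DN3 descriptions mention bone marrow, and their tissue label, thymus, was followed. One fit of limma 3.58.1 (R 4.3.3) held 6 population means with 5 residual degrees of freedom, two-sided contrasts and Benjamini-Hochberg adjustment over 19938 genes, with calls made at adjusted p under 0.05. DN2, with 1 array, was assumed to vary like the others. The script was tested on simulated data. Tables were made in Python 3.11.15 with pandas 2.3.3 and matplotlib 3.10.9. Named are up to 6 called members per comparison and direction, called members of the F test, paralogous forms, members of highest and lowest level, and up to 3 called genes per list or the one that moved most; not all are printed. Members and lists were chosen with earlier results of these data known, and the plasmacytoid dendritic, muscle and germ cell lists, the neighbours, the motifs and complexes without tissue-restricted forms were chosen after seeing the values. Alternatives were quantiles normalized again, median centring, the mean of probe sets, a filter on dim genes, an intensity trend, array weights, a replicate block, a stricter threshold and each array left out.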

Additional observations from a re-analysis of the deposited data

How the results depend on the processing

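No alternative reversed a called member. With quantiles normalized once more, the F test called 6 members and DN3 against ETP 4. Centring arrays on their medians gave 11 in the F test and 1 in CLP against LMPP, and an intensity trend with a robust prior gave 13 in the F test. Array weights gave 12 for DN3 against ETP. ETP against LMPP gave 2, with Cox7a1 added, under quantiles normalized again, array weights and the replicate block. At adjusted p under 0.01 the counts were 3 in the F test, 1 in CLP against LMPP, 0 in DN2 against ETP and 1 in DN3 against ETP. Leaving out each array in turn gave 3 to 9 in the F test, 2 to 4 in LMPP against HSC, 1 to 3 in CLP against LMPP, 2 to 7 in CLP against HSC, 1 in ETP against LMPP, 2 to 3 in ETP against CLP, 0 to 1 in DN2 against ETP, 0 in DN3 against DN2, 1 to 8 in DN3 against ETP and 1 to 2 in DN3 against HSC. Of 21 called member differences 12 kept their call under each alternative that used all arrays.

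The range of centred levels moved to 0.315 in complex I and 0.348 in ATP synthase with median centring, to 0.125 in complex II and 0.175 in ATP synthase with quantiles normalized again, and to 0.169 in complex IV with dim genes left out. The median of members kept its sign between LMPP and HSC (-0.205 to -0.116) and between DN3 and ETP (0.112 to 0.190) in 6 alternatives of scaling and model. The cause was not tested.

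The correlations of deviations of same-numbered arrays ran from -0.258 to 0.283. The 4 pairs with HSC were negative, the other 6 were positive and 4 of these were over 0.1; since not every pair was, the numbers were not taken as pairs. With the replicate block the F test called 7 members, with Ndufs7 in place of Ndufb10, and DN3 against ETP 5, without Atp5g1 and Atp5g3.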
